A study of Mus musculus with 35 samples.

Results

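The 78 mouse genes for mitochondrial ribosomal proteins were examined in 35 RNA sequencing libraries. They were chosen by symbol alone, as every gene named Mrpl or Mrps followed by a number and, in a few cases, the letter a, b or c. These are 78 of the 49671 genes in the count table. They comprise 51 proteins of the large subunit, 26 of the small subunit and Mrps36. Mrps36 carries a ribosomal name but is now described as a component of the 2-oxoglutarate dehydrogenase complex. By current nomenclature, Mrps18a and Mrps30 belong to the large subunit in spite of their names.

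The cells were bone marrow stem and progenitor cells of C57Bl/6 mice, depleted of cells with lineage markers (lin- HSPCs). They were transduced with lentivirus, sorted for the fluorescent reporters and kept for 1 week in methylcellulose colony medium with 10 ng/mL GM-CSF. There were 7 groups of 5 libraries each. The Empty group received the vector with mCherry only, and each of the other groups also expressed an mEGFP-tagged NUP98-HOXA9 protein. NUP98-HOXA9 is a leukemia fusion that joins the disordered, FG-motif-rich N-terminal part of the nucleoporin NUP98 to the homeodomain of HOXA9. G-NHX9 was the full-length fusion, which the study's own text writes G-NHA9. In G-NHX9-8FA, phenylalanines of FG motifs were changed to alanine. In G-NHX9-21FGAA, both residues of FG motifs were changed to alanine. G-NHX9-midi was a shortened fusion that keeps the C-terminal stretch of the FG-rich region and lacks the GLEBS domain. G-NHX9-midi-21FGAA carried the FG changes within that shortened fusion, and in G-NHX9-DDNA the homeodomain was mutated to weaken DNA binding. The labels give an age of 8 weeks for the mice behind 32 libraries, 9 and 10 weeks for Empty libraries 4 and 5, and 11 weeks for G-NHX9 library 1. The sources do not say whether libraries with one number came from the same mice, so p-values measure the spread between these libraries. All fusion proteins were expressed from a lentiviral vector, so their amount need not match that of a fusion expressed from its own locus.

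Mitochondria carry their own ribosome. It translates the mRNAs of the mitochondrial genome, all of which encode subunits of the oxidative phosphorylation complexes. Its ribosomal RNAs come from mitochondrial DNA, whereas its proteins are encoded in the nucleus, made in the cytosol and imported. Many descend from bacterial ribosomal proteins, and others exist only in mitochondria. In blood-forming tissue, mitochondrial translation supplies the respiratory chain on which differentiating progenitors and many leukemias rely.

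The libraries held between 31559914 and 75810659 counts, of which these genes took 0.185 to 0.257%. All 78 passed the filter on low counts, as did 17166 genes in total. Levels are given as CPM (counts scaled to a common library size) after trimmed-mean-of-M-values (TMM) scaling, and differences as log2 fold changes from edgeR's quasi-likelihood test with their standard error (SE). A gene was called higher or lower where the p-value, adjusted over the 17166 genes by the Benjamini-Hochberg method, was under 0.05. Progenitor markers (Kit, Cd34, Ly6a, Flt3, Gata2 and Meis1) were present. Their summed level averaged 346 CPM in Empty, 663 in G-NHX9, 361 in G-NHX9-8FA and 354 in G-NHX9-midi. It averaged 663 CPM in G-NHX9-21FGAA, 608 in G-NHX9-midi-21FGAA and 420 in G-NHX9-DDNA. Of 5 lymphoid markers, 4 did not pass the filter and Ebf1 averaged at most 0.293 CPM in any group. Neutrophil, macrophage, mast cell and erythroid markers were all present, so the cultures were mixed. In such bulk samples a lower amount of RNA per cell cannot be told apart from fewer cells of a type.

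Empty libraries 4 and 5 stood apart in the measure used here. The summed level of the 78 genes was 2249, 2412 and 2226 CPM in Empty libraries 1, 2 and 3, and 1934 and 2007 CPM in libraries 4 and 5. The share of counts from the mitochondrial rRNAs was 1.37, 2.07 and 1.9% in the first 3 and 3.19 and 3.3% in the other two, which also had the fewest counts of the group. G-NHX9-DDNA libraries 4 and 5 were alike in this respect, with sums of 2027 and 1975 CPM and rRNA shares of 2.24 and 3.05%, and so was G-NHX9 library 5, with a sum of 2062 CPM and a share of 2.67%. A low sum did not always come with a high share, since G-NHX9-21FGAA library 1 had 1951 CPM and 1.79%. Counts against Empty are therefore also given with Empty libraries 1, 2 and 3 only, an alternative chosen after the values were seen. Libraries 4 and 5 of the other groups stayed in that fit. The part of age, depth or rRNA share in the results was not tested.

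**Figure D1:**
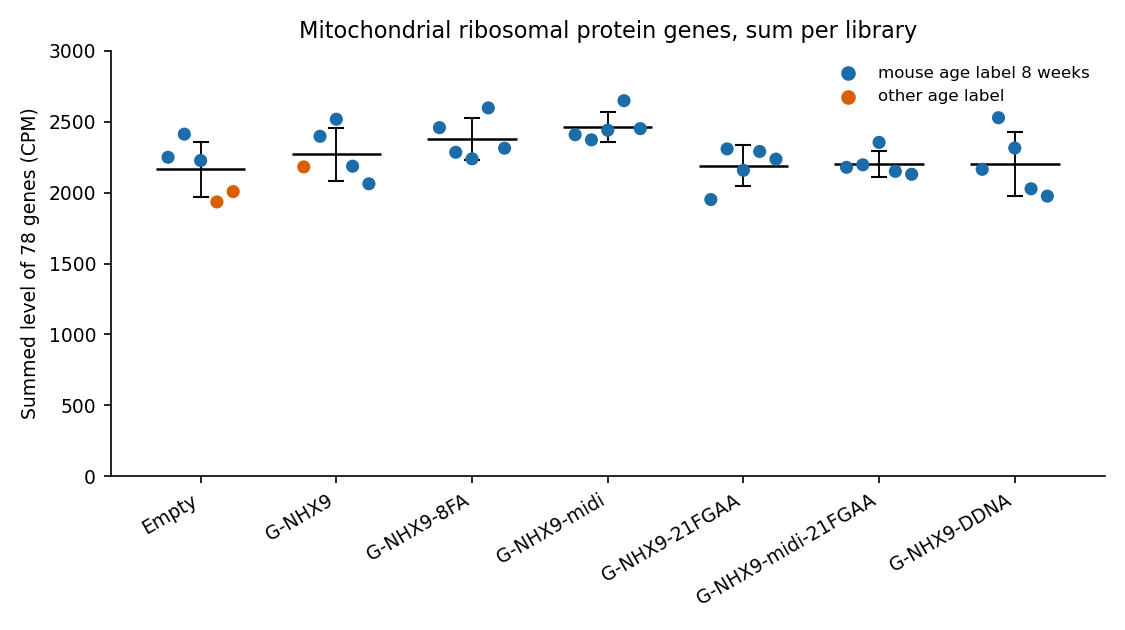
Summed level (CPM) of the 78 mitochondrial ribosomal protein genes in each of the 35 libraries, by group in replicate order. Lines and bars give the mean and SD of 5 libraries, and orange marks libraries whose mouse age label is not 8 weeks. G-NHX9-midi was the highest group at 2372 to 2648 CPM, and the 2 orange points in Empty were its lowest libraries.

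The summed level averaged 2170 ± 194 CPM in Empty, 2270 ± 184 in G-NHX9, 2380 ± 148 in G-NHX9-8FA and 2460 ± 107 in G-NHX9-midi (SD, n = 5). It averaged 2190 ± 145 CPM in G-NHX9-21FGAA, 2200 ± 89.2 in G-NHX9-midi-21FGAA and 2200 ± 225 in G-NHX9-DDNA (SD, n = 5). The 5 G-NHX9-midi libraries, at 2408, 2372, 2440, 2648 and 2451 CPM, all lay above the 5 G-NHX9-midi-21FGAA libraries, at 2178, 2196, 2354, 2150 and 2129 CPM. They also lay above the 5 G-NHX9-21FGAA libraries, at 1951 to 2308 CPM. Every other pair of groups overlapped.

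The mean level over all libraries was between 10 and 100 CPM for 76 of the 78 genes. Per kilobase of exon, the median level was 11 CPM per kb. The highest were Mrps21 at 51.1, Mrpl18 at 44.6 and Mrpl34 at 36.3 CPM per kb. The lowest were Mrpl47 at 2.82, Mrps35 at 2.42 and Mrpl53 at 0.861 CPM per kb. Mrps21 and Mrpl34 are homologues of the small bacterial proteins bS21 and bL34. Mrpl53, a mitochondria-specific protein, was the only member below 1 CPM on average (0.681 CPM), and its count per library ran from 19 to 59. In the GENCODE annotation of GRCm38, 88.0% of its exon bases are shared with Gm42688 on the same strand, so its count is uncertain. Divided by the longest transcript instead of all exons, the median was 13.7 CPM per kb and Mrps21 and Mrpl53 were again first and last.

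The members are scattered over 17 chromosomes, with 11 on chromosome 11. A protein-coding gene starts head to head within 1000 bp of 18 members (23.1%), against 10.1% of the 13371 protein-coding genes tested. Such pairs include Mrpl49 with Fau, which encodes a cytosolic ribosomal protein, Mrps12 with the mitochondrial seryl-tRNA synthetase gene Sars2, and Mrps18b with Ppp1r10. Another gene overlaps 42 members on some strand. The strand setting used for counting is not given in the sources used here, so reads of overlapping genes on opposite strands may not have been told apart.

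The clearest comparison was between the shortened fusion with and without the FG changes, which asks what loss of FG motifs does in that backbone. With G-NHX9-midi-21FGAA, 26 of 78 genes were lower and 4 were higher than with G-NHX9-midi. Of all genes tested, 22.2% were called lower and 21.0% higher, so the share of members lower (33.3%) was above the background and the share higher (5.13%) below it. The median log2 fold change of the members was -0.16, against -0.02 over all genes. In 28 members every G-NHX9-midi-21FGAA library lay below every G-NHX9-midi library, and in 4 every library lay above. Over all genes these shares were 15.9% and 14.2%.

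**Figure D2:**
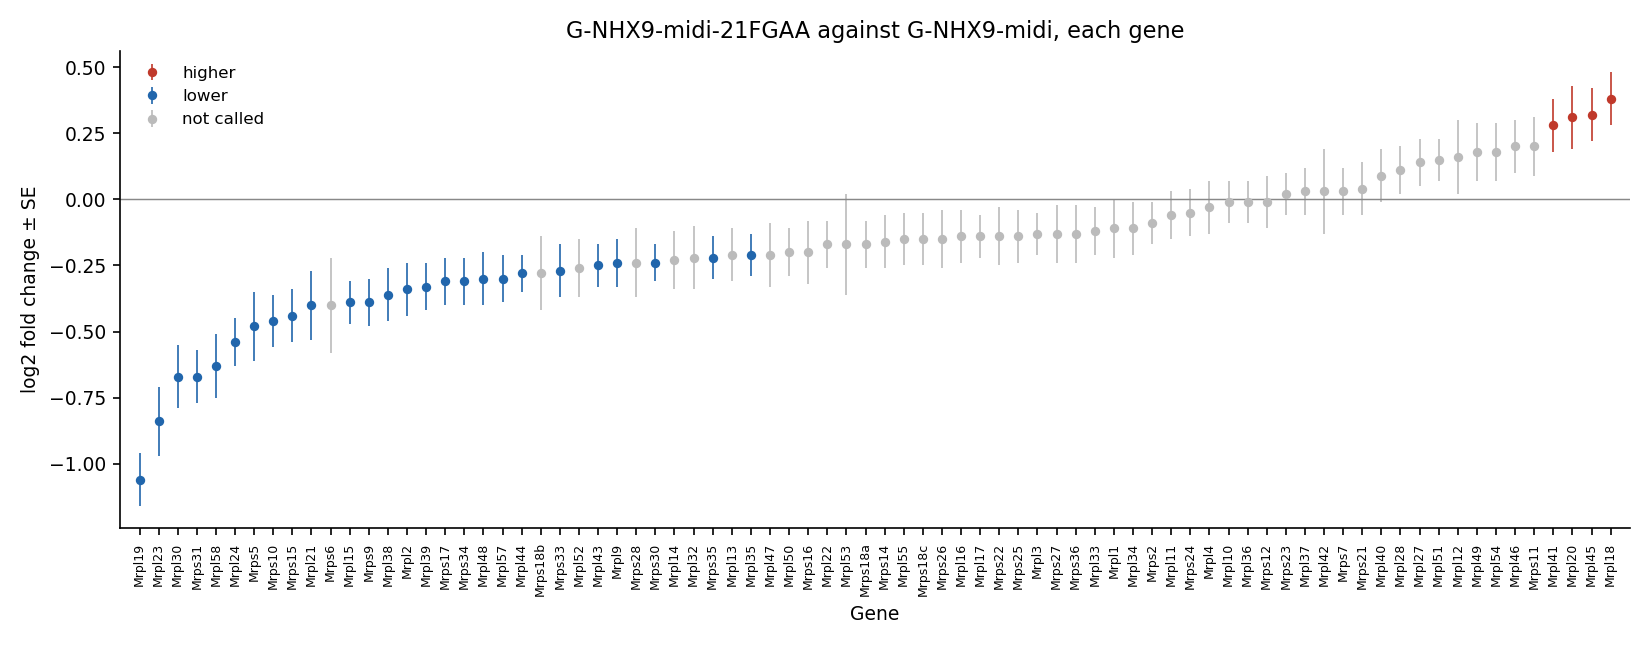
Log2 fold change (G-NHX9-midi-21FGAA minus G-NHX9-midi) of each of the 78 genes, with the SE from edgeR as bars, ordered by value. Blue and red mark genes called lower (26) and higher (4), and the values run from -1.06 for Mrpl19 to 0.38 for Mrpl18.

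Mrpl19, the homologue of bacterial bL19, which lies where the subunits meet, fell most. It lies on the minus strand of GRCm38 at chr6:81957851-81965958. Its level was 69.2, 76.2, 73.9, 68.5 and 72.4 CPM with G-NHX9-midi and 33, 38.6, 36.9, 31.2 and 33 CPM with G-NHX9-midi-21FGAA. These groups were far apart. The mean level with the FG changes was also below that in Empty, where the libraries had 44.8, 52.7, 49.9, 44.9 and 37.2 CPM. Those ranges overlapped, at 38.6 CPM with the FG changes and 37.2 CPM in Empty. The log2 fold change against G-NHX9-midi was -1.06 (SE 0.1, edgeR adjusted p = 5.6e-10). Gcfc2 on the other strand shares 36.0% of the exon bases of Mrpl19, and its own log2 fold change was -0.24 (SE 0.08, edgeR adjusted p = 0.0099).

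Mrpl23, the homologue of uL23 at the rim of the exit tunnel, was 20.4, 21.7, 22.1, 22 and 22.1 CPM with G-NHX9-midi and 10.2, 12, 14.5, 12.9 and 10.7 CPM with G-NHX9-midi-21FGAA. The fall of 0.84 on the log2 scale had an SE of 0.13 (edgeR adjusted p = 1.6e-06), and the groups did not overlap. Mrps31, a mitochondria-specific protein of the small subunit, was 18.7, 19.2, 19.4, 18.9 and 17.7 CPM against 12.5, 12.6, 13, 10.1 and 10.7 CPM (log2 fold change -0.67, SE 0.1, edgeR adjusted p = 8.8e-07). It too was lower in every library with the FG changes. Mrpl30 fell by 0.67 on the log2 scale (SE 0.12), and its head-to-head neighbour Mitd1 had a log2 fold change of 0.07 (SE 0.1, edgeR adjusted p = 0.65). Mrpl58, also known as ICT1, is a ribosome-bound peptidyl-tRNA hydrolase that rescues stalled ribosomes. Its log2 fold change was -0.63 (SE 0.12, edgeR adjusted p = 6.3e-05). Mrpl24, the homologue of uL24, fell by 0.54 on the log2 scale (SE 0.09), and Rrnad1, which shares 26.3% of its exon bases on the other strand, fell by 0.41 (SE 0.14).

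The other 20 genes called lower had log2 fold changes between -0.48 and -0.21. Among these were Mrps5, Mrps9, Mrps10, Mrps15 and Mrps17 of the small subunit, all homologues of bacterial proteins. Mrps30, counted in the large subunit, was at -0.24 (SE 0.07, edgeR adjusted p = 0.0097).

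The 4 genes that rose were all of the large subunit. Mrpl18, the homologue of uL18, was 49, 55.4, 50.9, 56.9 and 56.9 CPM with G-NHX9-midi and 69.5, 69.9, 76.4, 61.3 and 72.6 CPM with G-NHX9-midi-21FGAA. Its log2 fold change was 0.38 (SE 0.1, edgeR adjusted p = 0.0025) and the groups did not overlap. Tcp1, which overlaps 10.1% of its exon bases on the other strand, had a log2 fold change of -0.11 (SE 0.09, edgeR adjusted p = 0.3). Mrpl45, which helps to tether the ribosome to the inner membrane, rose from 46.5, 46.7, 48.2, 51.9 and 52.9 CPM to 58.4, 62.7, 62.6, 55 and 68.4 CPM (log2 fold change 0.32, SE 0.1, edgeR adjusted p = 0.0096). Mrpl20 (0.31, SE 0.12) and Mrpl41 (0.28, SE 0.1) rose by similar amounts. The call of Mrpl20 was lost on leaving out any of 7 libraries, with an adjusted p of up to 0.12 without G-NHX9-midi-21FGAA library 4. The count of members higher fell to 2 without any one of G-NHX9-midi libraries 1, 2 or 3 or G-NHX9-midi-21FGAA libraries 3 or 4.

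**Figure D3:**
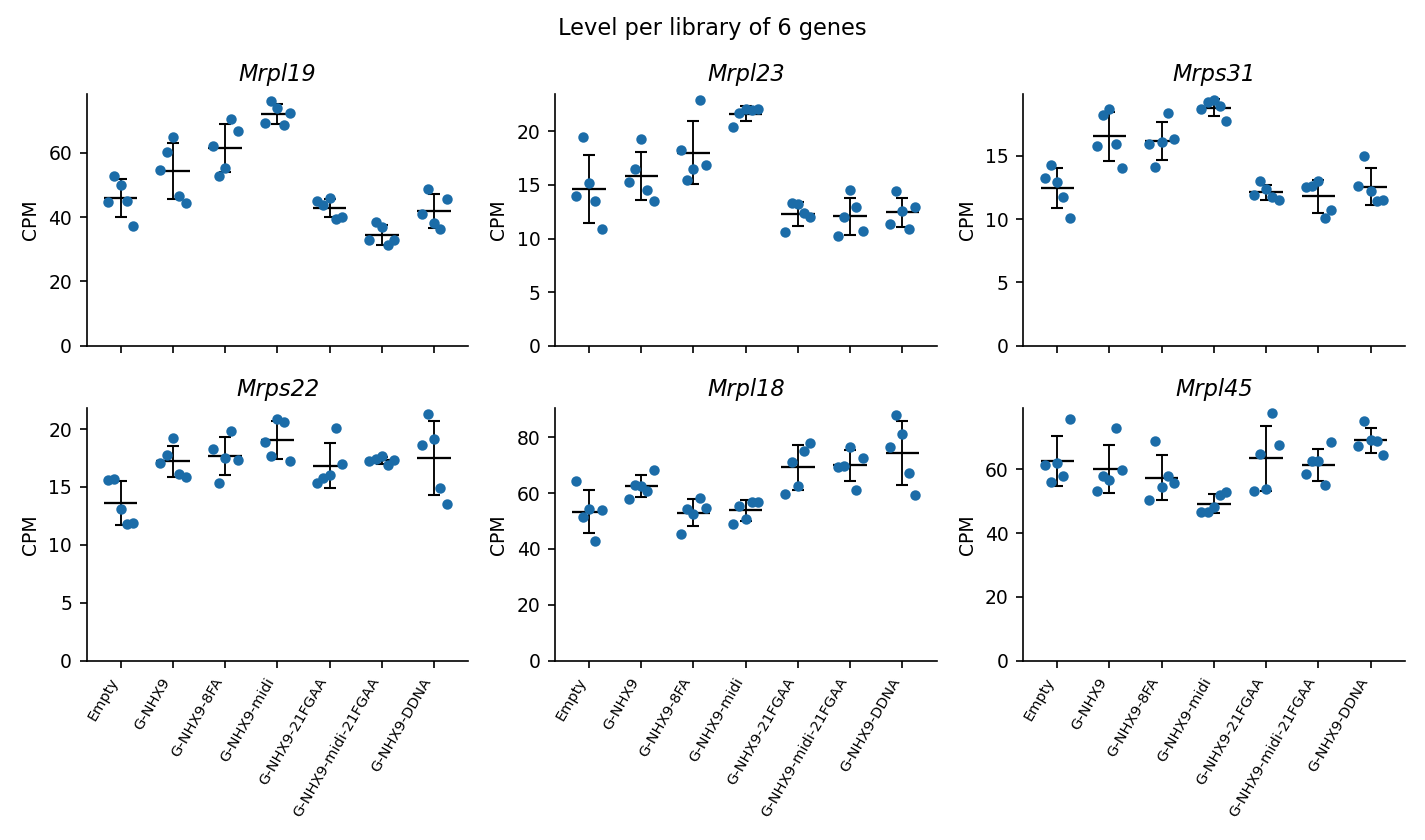
Level (CPM, axes from 0) of 6 genes in the 5 libraries of each of the 7 groups, with the mean and SD. By group mean, Mrpl19, Mrpl23 and Mrps31 were highest with G-NHX9-midi, whereas Mrpl45 was lowest there, with libraries at 46.5 to 52.9 CPM. Single libraries of other groups overlapped these ranges for some of the genes.

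Promoter windows from 250 bases before to 50 after the RefSeq start were found for 69 of the 78 symbols, as 75 windows on GRCm38.p6. The letters CCGGAAG, a core of ETS-family sites, occurred on either strand in 34.7% of member windows, against 16.2% of windows of tested genes and 8.86% of all 32851 windows. GCGCANGCG, part of the palindromic site of NRF1, occurred in 21.3% of member windows, 12.2% of those of tested genes and 6.25% of all. AAGATGGCG, a YY1 core, occurred in 10.7, 2.72 and 1.4%. The remaining motifs searched were near their share among tested genes. CACGTG occurred in 9.33% against 9.59%, GGGCGGG in 42.7% against 43.6%, and CCAAT in 40% against 37.6%. ETS letters were in 6 of the 21 matched members that were lower with G-NHX9-midi-21FGAA, 1 of 4 that were higher and 19 of 44 not called. For NRF1 these were 6 of 21, 1 of 4 and 9 of 44. A match is a run of letters and not a shown binding site.

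The windows below belong to the matched genes that fell most (Mrpl23, Mrpl30 and Mrps31) and rose most (Mrpl18 and Mrpl45) in this comparison, and are shown so that the promoters of the 2 directions can be compared. Capitals mark NRF1, ETS or YY1 letters on either strand. Coordinates are GRCm38.p6, and each sequence runs from 5′ to 3′ on the strand of the gene. Mrpl23 lies at chr7:142532782-142533081 (+), Mrpl30 at chr1:37890227-37890526 (+), Mrps31 at chr8:22411090-22411389 (+), Mrpl18 at chr17:12916042-12916341 (-) and Mrpl45 at chr11:97315466-97315765 (+).
Mrpl23: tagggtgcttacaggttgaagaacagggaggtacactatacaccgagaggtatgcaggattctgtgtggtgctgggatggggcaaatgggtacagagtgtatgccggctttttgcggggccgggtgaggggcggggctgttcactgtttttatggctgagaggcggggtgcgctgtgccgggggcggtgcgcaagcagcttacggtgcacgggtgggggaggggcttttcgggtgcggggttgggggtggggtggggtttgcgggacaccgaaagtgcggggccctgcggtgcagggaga
Mrpl30: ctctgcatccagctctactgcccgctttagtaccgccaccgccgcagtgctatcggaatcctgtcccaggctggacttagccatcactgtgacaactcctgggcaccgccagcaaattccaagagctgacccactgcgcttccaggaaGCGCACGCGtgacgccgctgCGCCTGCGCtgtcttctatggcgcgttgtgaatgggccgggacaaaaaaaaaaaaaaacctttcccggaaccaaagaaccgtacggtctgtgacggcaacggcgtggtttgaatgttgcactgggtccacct
Mrps31: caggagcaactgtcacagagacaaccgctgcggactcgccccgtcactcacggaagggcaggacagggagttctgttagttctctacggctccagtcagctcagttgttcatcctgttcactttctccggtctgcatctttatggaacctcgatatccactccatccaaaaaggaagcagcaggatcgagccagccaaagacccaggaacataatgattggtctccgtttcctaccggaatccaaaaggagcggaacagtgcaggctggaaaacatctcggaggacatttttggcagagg
Mrpl18: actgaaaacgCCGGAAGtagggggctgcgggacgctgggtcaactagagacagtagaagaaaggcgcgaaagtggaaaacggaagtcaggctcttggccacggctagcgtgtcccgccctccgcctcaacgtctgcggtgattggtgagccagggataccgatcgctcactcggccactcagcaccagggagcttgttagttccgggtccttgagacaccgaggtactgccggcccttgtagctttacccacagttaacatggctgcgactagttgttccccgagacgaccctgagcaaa
Mrpl45: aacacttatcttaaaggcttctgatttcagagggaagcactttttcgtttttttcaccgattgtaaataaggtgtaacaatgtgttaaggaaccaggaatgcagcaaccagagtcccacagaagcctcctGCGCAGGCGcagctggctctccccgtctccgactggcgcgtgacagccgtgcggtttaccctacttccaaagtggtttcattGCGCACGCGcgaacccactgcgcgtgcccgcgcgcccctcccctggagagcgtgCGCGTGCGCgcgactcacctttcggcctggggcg
Mrpl45 held 3 NRF1 matches, Mrpl30 held 2 and Mrpl18 held 1 ETS match, while the windows of Mrpl23 and Mrps31 held none of the 3 motifs.

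Against Empty, the shortened fusion gave the largest count. With G-NHX9-midi, 35 of 78 genes were higher and 2 were lower, and the median log2 fold change was 0.22 against 0.02 over all genes. Of all genes tested, 20.5% were called higher and 20.0% lower. In 19 members every G-NHX9-midi library lay above every Empty library, and in 2 every library lay below, where the shares over all genes were 13.4% and 13.9%. The count rested in part on Empty libraries 4 and 5. With Empty libraries 1, 2 and 3 only, 11 members (14.1%) were higher and 2 lower, and the median was 0.11. Of all genes, 13.8% were then higher and 16.4% lower. Without Empty library 4 alone 22 members were higher, and without library 5 alone 21.

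The genes that rose most were Mrpl19 (log2 fold change 0.65, SE 0.1), Mrps18b (0.63, SE 0.14), Mrps31 (0.59, SE 0.1) and Mrpl23 (0.57, SE 0.13). Their edgeR adjusted p-values were 5.5e-06, 0.00047, 8.8e-06 and 0.00046, and each stayed past the threshold under every alternative run. Mrps18b was 23.5, 17.5, 21.6, 20.2 and 18.4 CPM with G-NHX9-midi and 14.7, 17.3, 13, 9.96 and 9.98 CPM in Empty, so the groups did not overlap but came close at 17.5 and 17.3. Its level was lowest in Empty libraries 4 and 5. Mrpl45 and Mrpl27 both fell by 0.34 on the log2 scale (SE 0.1 and 0.09, edgeR adjusted p = 0.0059 and 0.0043). The call of Mrpl45 was lost without TMM scaling (edgeR adjusted p = 0.09). Mrpl27, the homologue of bL27 near the peptidyl transferase centre, was 23, 18.8, 20, 24.2 and 23 CPM against 27.8, 31.3, 27.5, 24.7 and 26.6 CPM in Empty, without overlap.

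**Figure D4:**
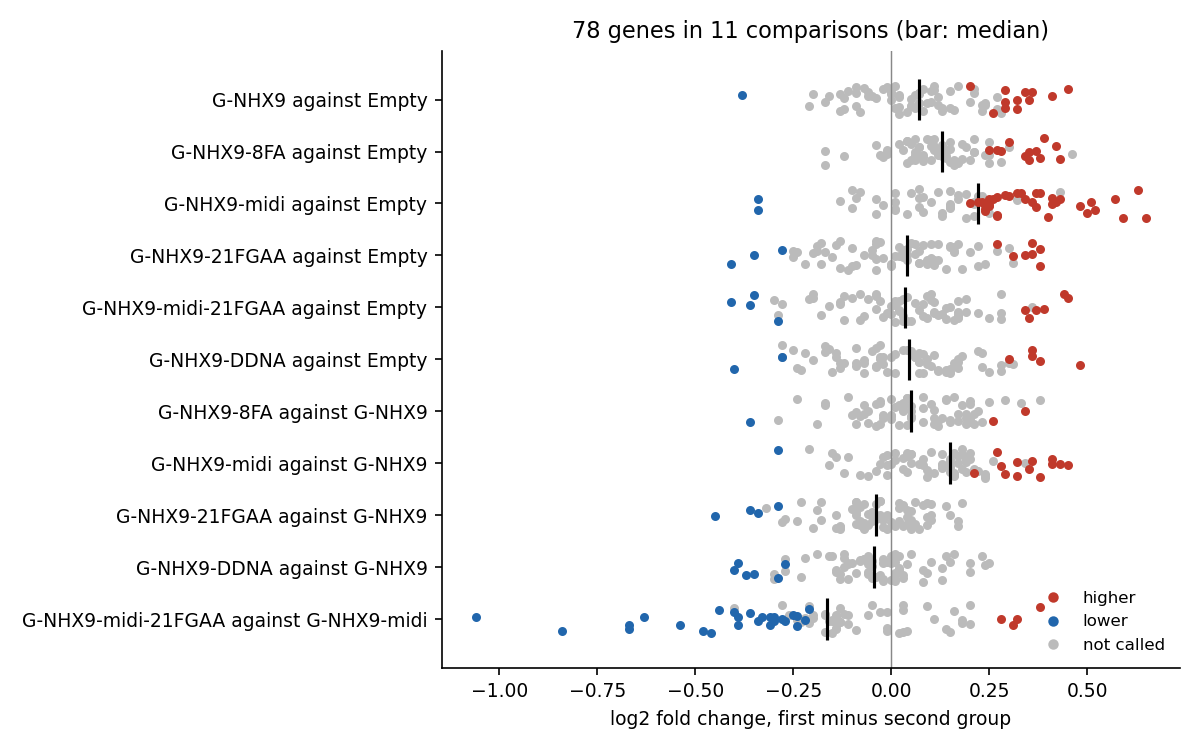
Log2 fold change (first minus second group) of the 78 genes in the 11 comparisons, 1 point per gene, with a bar at the median. Red and blue mark genes called higher or lower, which number 35 and 2 for G-NHX9-midi against Empty and 4 and 26 for G-NHX9-midi-21FGAA against G-NHX9-midi.

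The full-length fusion moved few of these genes. With G-NHX9, 12 were higher and 1 was lower than in Empty, where 16.9% of all genes were higher and 15.2% lower, so the members fell at or below the background. The median was 0.07. Without TMM scaling 43 were higher and 1 lower. Of all genes, 29.2% were then higher and 9.53% lower, and their median went from 0.01 to 0.19. Mrps27, an RNA-binding protein of the pentatricopeptide repeat family, rose most (0.45, SE 0.11, edgeR adjusted p = 0.0018). It was 12.8, 16.4, 18.6, 17.4 and 20.7 CPM against 12.3, 12.1, 12.2, 11.6 and 14.7 CPM, and the groups overlapped in 1 library. Mrps31 (0.41, SE 0.1), Mrpl38 (0.36, SE 0.1) and Mrpl15 (0.35, SE 0.08) followed. Mrpl15, the homologue of uL15, was 43.9, 45.8, 46.9, 43.8 and 42.4 CPM against 35.9, 38.7, 37.8, 30.1 and 32.6 CPM, without overlap. Mrpl27 was the gene that fell, by 0.38 on the log2 scale (SE 0.09, edgeR adjusted p = 0.0023). With Empty libraries 1, 2 and 3 only, 2 members were higher and 2 lower, and the median was -0.02. Of all genes, 12.9% were higher and 14.2% lower in that fit. With all libraries and replicate number added as a block, 17 were higher and 1 lower, and the median was 0.07. Over all genes 20.4% were then higher and 19.8% lower. Without Empty library 4 or 5, 4 and 5 were higher, and without G-NHX9 library 2 or 3, 7 in each case.

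With G-NHX9-8FA, 12 genes were higher than in Empty and edgeR called none lower, where 13.4% of all genes were higher and 13.2% lower. None had an unadjusted p under 0.05 in the lower direction, and DESeq2 called none lower. The median was 0.13. Mrpl58 (0.43, SE 0.12), Mrpl19 (0.42, SE 0.1), Mrpl15 (0.39, SE 0.08) and Mrps31 (0.38, SE 0.1) rose most. Mrpl58 was 28.1, 20.6, 19.3, 32 and 24.8 CPM, the widest spread of any group, against 18.4, 21.5, 18.7, 17.8 and 16.3 CPM in Empty. With Empty libraries 1, 2 and 3 only, 2 members were higher, where 8.43% of all genes were higher. Without Empty library 4 or 5, 7 were higher, and without G-NHX9-8FA library 4, 6.

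On all libraries with TMM scaling, the constructs with FG pairs changed, or with weakened DNA binding, gave smaller counts. With G-NHX9-21FGAA, 7 genes were higher and 3 lower than in Empty (14.7% and 12.5% of all genes, median 0.04). With G-NHX9-midi-21FGAA, 6 were higher and 4 lower (9.59% and 7.32% of all genes, median 0.03). With G-NHX9-DDNA, 5 were higher and 2 lower (9.85% and 7.35% of all genes, median 0.04). When replicate number was added as a block, the last pair of counts became 8 and 5 (13.3% and 11.7% of all genes). Without TMM scaling the 3 counts were 34 and 0, 28 and 2, and 19 and 0. The shares of all genes higher and lower were then 26.5% and 5.77%, 19.1% and 3.89%, and 17% and 3.61%. Their median went from -0.02 to 0.16, from -0.02 to 0.12 and from -0.01 to 0.12. The balance of higher and lower therefore depended on the scaling, for members and for all genes. With Empty libraries 1, 2 and 3 only the 3 counts were 1 and 6, 0 and 5, and 2 and 5. G-NHX9 then had 2 and 2 and G-NHX9-8FA 2 and 0, so the order of the counts was not kept. In that fit the shares of all genes higher and lower fell too. For the 3 constructs they were 9.77% and 8.94%, 3.94% and 4.27%, and 5.57% and 5.73%. Leaving out 1 library moved the count higher for G-NHX9-21FGAA to 12 without its library 1. For G-NHX9-DDNA it gave 2 without its library 2 or 3, 9 without its library 5, 2 without Empty library 4 and 3 without Empty library 5. Its count lower was 0 or 1 without any of 8 libraries, among them Empty libraries 1 to 4. The count lower for G-NHX9-midi-21FGAA was 2 without its library 1 or 4 or Empty library 2 or 3, and 1 without its library 5.

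Mrpl18 was among the genes that rose most in these 3 comparisons, at 0.38, 0.39 and 0.48 (SE 0.1 each). The comparisons share the Empty libraries. Its level in Empty was 64.2, 51.4, 54.5, 43 and 53.8 CPM. It was 59.6, 71, 62.4, 75.2 and 78 CPM with G-NHX9-21FGAA and 76.7, 88.1, 81.2, 67.1 and 59.3 CPM with G-NHX9-DDNA, so both overlapped Empty. Mrps11, the homologue of uS11, rose by 0.38, 0.37 and 0.3 (SE 0.11 each). Mrpl49 rose by 0.34, 0.44 and 0.38 (SE 0.11 each). Mrpl54 rose by 0.36 with G-NHX9-21FGAA and 0.34 with G-NHX9-midi-21FGAA (SE 0.11 each). Mrpl20 rose by 0.45 (SE 0.12) with G-NHX9-midi-21FGAA, and Mrps27 by 0.36 (SE 0.11) with G-NHX9-21FGAA and by the same with G-NHX9-DDNA. In the other direction, Mrps15, the homologue of uS15, fell by 0.35, 0.36 and 0.28 on the log2 scale (SE 0.1 each). It was 44.8, 48.6, 43.2, 41.8 and 43.2 CPM in Empty and 36.2, 37.8, 38.1, 31.6 and 30.6 CPM with G-NHX9-21FGAA, without overlap. Mrpl52 fell by 0.41 with G-NHX9-21FGAA and 0.4 with G-NHX9-DDNA (SE 0.11 each). Mrpl27 fell by 0.28 (SE 0.09) with G-NHX9-21FGAA. With G-NHX9-midi-21FGAA, Mrpl19 fell by 0.41 (SE 0.1), Mrpl14 by 0.35 (SE 0.11) and Mrpl24 by 0.29 (SE 0.09).

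Mrps22, a mitochondria-specific protein of the small subunit, was called higher in each comparison with Empty. Its level in Empty was 15.6, 15.7, 13.1, 11.8 and 11.9 CPM. It was 17.1, 17.8, 19.2, 16.1 and 15.9 CPM with G-NHX9, 18.3, 15.3, 17.5, 19.8 and 17.3 CPM with G-NHX9-8FA, and 18.9, 17.7, 20.9, 20.6 and 17.2 CPM with G-NHX9-midi. It was 15.3, 15.8, 16, 20.1 and 17 CPM with G-NHX9-21FGAA, 17.2, 17.4, 17.7, 16.9 and 17.3 CPM with G-NHX9-midi-21FGAA, and 18.6, 21.3, 19.1, 14.9 and 13.5 CPM with G-NHX9-DDNA. G-NHX9, G-NHX9-midi and G-NHX9-midi-21FGAA did not overlap Empty and the other groups did. The log2 fold changes ran from 0.31 to 0.48 (SE 0.11), and all 6 rest on the same 5 Empty libraries, of which 4 and 5 were the lowest. Without the libraries of another age than 8 weeks, the call held for G-NHX9-midi alone, and the others had edgeR adjusted p-values from 0.18 to 0.26. The call was also lost without Empty library 4 or 5 for each group but G-NHX9-8FA and G-NHX9-midi.

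Of the 78 genes, 33 were called in no comparison with Empty. These included the stalk protein Mrpl10, at 32.1 to 36.3 CPM in Empty and 32.3 to 35.6 CPM with G-NHX9-midi. Mrpl12, which binds Mrpl10 in several copies and recruits translation factors, varied more within groups, from 18.6 to 25.5 CPM in Empty and from 19.9 to 33.2 CPM with G-NHX9. Mrpl11, at the base of the stalk, was called higher with G-NHX9-midi (0.23, SE 0.09, edgeR adjusted p = 0.043), a call lost without any of 6 libraries. The 3 Mrps18 paralogues differed. Mrps18b was called with G-NHX9-midi, as above, whereas Mrps18a ranged from 29 to 36 CPM in Empty and 29.6 to 36.9 CPM with G-NHX9-midi. Mrps18c ranged from 25.4 to 35.4 and 27.7 to 33.8 CPM in the same groups. Mrps30 rose by 0.2 with G-NHX9 and 0.27 with G-NHX9-midi (SE 0.07 each). Both calls were lost without the libraries of another age than 8 weeks (edgeR adjusted p = 0.28 and 0.072).

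Against the full-length fusion, the shortened one had 13 genes higher and 1 lower (8.50% and 11.2% of all genes), with a median of 0.15 against 0 over all genes. Mrpl23 (0.45, SE 0.13, edgeR adjusted p = 0.009) and Mrps18b (0.43, SE 0.14, edgeR adjusted p = 0.026) rose most. Mrpl23 was 15.3, 16.5, 19.3, 14.5 and 13.5 CPM with G-NHX9, below all 5 libraries with G-NHX9-midi. Mrpl45 fell by 0.29 on the log2 scale (SE 0.1, edgeR adjusted p = 0.038), a call lost without any of 7 libraries. Mrps36, the gene that is not ribosomal, was higher by 0.32 (SE 0.11, edgeR adjusted p = 0.041). It was 12, 11.6, 11.4, 15.4 and 11.7 CPM against 9.73, 11.1, 11.2, 9.52 and 8.12 CPM, and the call was lost without any of 5 libraries, with an edgeR adjusted p of up to 0.15 without G-NHX9-midi library 4. The count of members changed, 14 in all, was 7 without G-NHX9-midi library 1 or 4, 9 without its library 3, 5 without G-NHX9 library 4 and 3 without G-NHX9 library 5.

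The remaining comparisons with G-NHX9 gave few calls. G-NHX9-8FA had 2 genes higher, Mrps15 (0.34, SE 0.1) and Mrps17 (0.26, SE 0.09), and 1 lower, Mrps27 (-0.36, SE 0.11). Over all genes these shares were 6.43% and 8.04%. The 3 calls were 7 without G-NHX9 library 3 and 0 without G-NHX9 library 5, and DESeq2 on all libraries called 4. Without TMM scaling none was higher and 6 were lower. Of all genes, 3.64% were then higher and 14.6% lower, and their median went from 0.01 to -0.12. G-NHX9-21FGAA had 4 genes lower, Mrps31 (-0.45, SE 0.1), Mrpl23 (-0.36, SE 0.13), Mrpl19 (-0.34, SE 0.1) and Mrpl38 (-0.29, SE 0.1). Over all genes 8.34% were lower and 8.91% higher. EdgeR called no member higher, none had an unadjusted p under 0.05 in that direction and DESeq2 called none. With the replicate block 7 were lower, where 11.3% of all genes were lower. The count was 2 without G-NHX9 library 1 or 4 or G-NHX9-21FGAA library 1, 4 or 5, and 1 without G-NHX9 library 2 or 3. G-NHX9-DDNA had 6 genes lower, with Mrps31 (-0.4, SE 0.1) and Mrpl38 (-0.39, SE 0.1) first, against 11.4% of all genes lower and 10.7% higher. EdgeR called none higher, where 3 had an unadjusted p under 0.05 and DESeq2 called 1. The 6 became 3 without G-NHX9 library 2 or 3 or G-NHX9-DDNA library 1 or 4. Leaving out G-NHX9 library 4 or 5 or G-NHX9-DDNA library 4 gave 1 member higher, and leaving out G-NHX9-DDNA library 5 gave 2.

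The FG changes could be compared between the 2 backbones, since the 4 groups share no libraries. By the study's account they leave the N-terminal FG motifs in the full-length fusion, a stretch that the shortened one lacks. An effect of the backbone therefore cannot be told apart from one of the FG motifs left. The difference of the 2 changes was tested as an interaction in the same fit, a test chosen after the values were seen. It passed the threshold for 2 of 78 members, where 12.6% of all genes did. Mrpl19 fell by 1.06 on the log2 scale in the shortened and by 0.34 in the full-length fusion (difference -0.72, edgeR adjusted p = 0.0008). Mrpl57 fell by 0.3 in the shortened fusion and its value was 0.09 in the full-length one (difference -0.4, edgeR adjusted p = 0.038). With the replicate block 6 members passed, but the share of all genes passing in that fit was not computed. For the other members a difference between the backbones was not shown, though 26 were lower in one and 4 in the other.

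**Figure D5:**
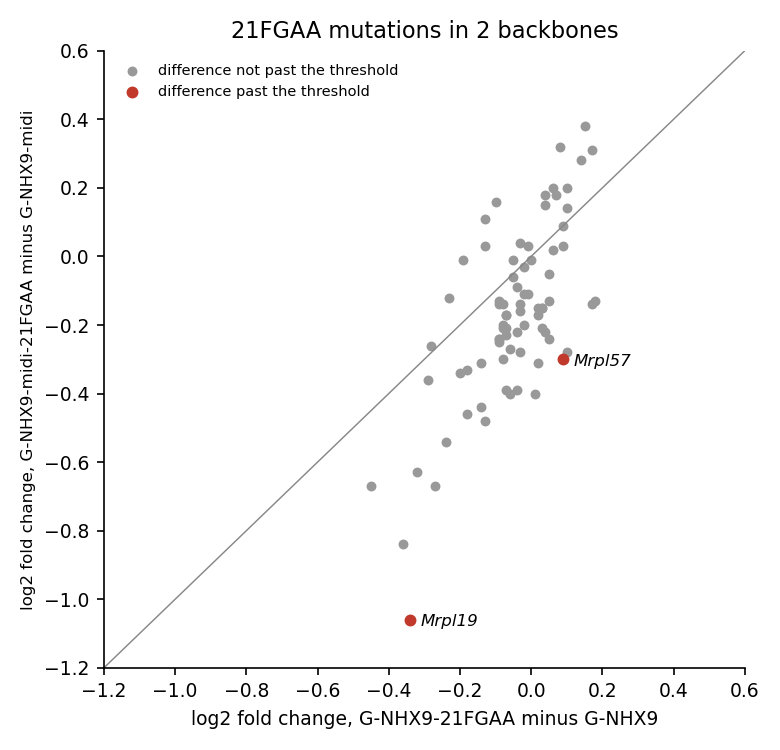
Log2 fold change from the FG changes in the full-length fusion (x axis, G-NHX9-21FGAA minus G-NHX9) and in the shortened fusion (y axis, G-NHX9-midi-21FGAA minus G-NHX9-midi), 1 point per gene, with the line of equal values. Red marks Mrpl19 and Mrpl57, for which the difference passed the threshold.

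With G-NHX9-midi-21FGAA against G-NHX9-midi, 17 of 51 genes of the large subunit were lower and 4 higher, and 9 of 26 of the small subunit were lower, with medians of -0.17 and -0.18. With G-NHX9-midi against Empty, 22 of 51 and 13 of 26 were higher, with medians of 0.21 and 0.24. Of the homologues of bacterial proteins 14 of 46 were lower in the former comparison, and of the mitochondria-specific proteins 12 of 31. These classes follow current nomenclature, so Mrps18a (mL66) and Mrps18b (mS40) are counted as mitochondria-specific. Their paralogue Mrps18c (bS18m) is counted as a homologue of a bacterial protein. With G-NHX9 against Empty the counts higher were 3 of 46 and 9 of 31, and with G-NHX9-8FA against Empty 4 of 46 and 8 of 31. Differences between the classes, or between the subunits, were not tested. The ratio of summed small to summed large subunit levels was 0.421 ± 0.00907 in Empty, 0.411 ± 0.00469 in G-NHX9, 0.43 ± 0.00392 in G-NHX9-midi and 0.417 ± 0.00328 in G-NHX9-midi-21FGAA (SD, n = 5). It was 0.421 ± 0.00593 in G-NHX9-8FA, 0.423 ± 0.00419 in G-NHX9-21FGAA and 0.414 ± 0.00551 in G-NHX9-DDNA. The G-NHX9-midi libraries, at 0.427 to 0.437, lay above those of G-NHX9-midi-21FGAA, at 0.414 to 0.422. They overlapped Empty (0.408 to 0.431) and G-NHX9-8FA (0.416 to 0.431). In the full-length fusion the mean ratio was higher with the FG changes, with libraries at 0.417 to 0.427 against 0.405 to 0.417.

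Other genes of mitochondrial translation are given by list, to be read against the 22.2% of all genes lower and 21.0% higher in G-NHX9-midi-21FGAA against G-NHX9-midi. Of 28 genes for ribosome assembly and rRNA modification, 12 (42.9%) were lower and 1 was higher. Ddx28, an RNA helicase of large subunit assembly, averaged 23.7 against 46.2 CPM (log2 fold change -0.96, SE 0.13, edgeR adjusted p = 1.9e-07). Tfb1m, the methyltransferase of the small rRNA, had -0.67 (SE 0.13), and Mettl17 had 0.33 (SE 0.09). Of 20 mitochondrial aminoacyl-tRNA synthetases, 5 (25%, near the share of all genes) were lower, led by Vars2 (-0.54, SE 0.1) and Mars2 (-0.47, SE 0.11), and 2 were higher, Fars2 (0.26, SE 0.09) and Iars2 (0.21, SE 0.06). Of 14 translation factors, 4 (28.6%) were lower, among them the recycling factor Mrrf (-0.44, SE 0.12) and Guf1 (-0.43, SE 0.13), and 1, the elongation factor Gfm1, was higher (0.17, SE 0.07). Of 16 genes for mitochondrial transcription and RNA stability, the 5 that changed (31.2%) were lower, with the helicase Twnk (-0.47, SE 0.1) and Ssbp1 (-0.46, SE 0.13) first. Of 5 further mitoribosomal proteins named otherwise, Chchd1 was lower (-0.27, SE 0.09). Of 10 regulators of nuclear genes for mitochondria, the 4 that changed were lower. They were Myc (-0.66, SE 0.19), the GABP subunit Gabpb1 (-0.56, SE 0.07), Yy1 (-0.36, SE 0.09) and Ppargc1a, which was near 0 in both groups at 0.0253 and 0.119 CPM. Of 15 genes in mitochondrial DNA, 1 was called, mt-Nd6 (-0.82, SE 0.22).

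In G-NHX9-midi against Empty, where 20.5% of all genes were higher and 20.0% lower, 14 of 28 assembly genes (50%) were higher and 1, Rbfa, was lower (-0.17, SE 0.07). Of the synthetases 9 of 20 (45%) were higher and 1, Fars2, was lower (-0.42, SE 0.09). Of the translation factors 5 of 14 (35.7%) were higher, of the genes for transcription and RNA stability 10 of 16 (62.5%), and of the further mitoribosomal proteins 3 of 5. The regulators were mixed, with 3 of 10 higher and Ppargc1b lower (-0.71, SE 0.25). Those higher were Myc (0.72, SE 0.19), Gabpb1 (0.49, SE 0.07) and Ppargc1a, which was near 0 with G-NHX9-midi as given above. Examples of genes that rose are Ears2 (0.85, SE 0.13) and Mars2 (0.68, SE 0.11) among the synthetases, Rnmtl1 (0.81, SE 0.19) and Wbscr16 (0.73, SE 0.15) among the assembly genes, Ptcd3 (0.66, SE 0.14), and Twnk (0.58, SE 0.1). As these counts use the Empty libraries, they share libraries 4 and 5 with the counts of members above. The cytosolic ribosomal protein genes moved further than the mitochondrial ones. Of 88 tested, 78 were higher and 2 lower with G-NHX9-midi than in Empty (median 0.61), and 82 were lower and 2 higher with G-NHX9-midi-21FGAA than with G-NHX9-midi (median -0.88).

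Markers of other cells moved with these groups. All 8 erythroid markers were lower with G-NHX9-midi than in Empty and all 8 higher with G-NHX9-midi-21FGAA than with G-NHX9-midi. Their sum ranged from 166 to 536 CPM in Empty, 115 to 345 in G-NHX9, 3.96 to 33.8 in G-NHX9-8FA, 3.67 to 24.8 in G-NHX9-midi, 245 to 1340 in G-NHX9-21FGAA, 357 to 1180 in G-NHX9-midi-21FGAA and 317 to 1250 in G-NHX9-DDNA. All 5 mast cell and basophil markers were higher with G-NHX9-midi-21FGAA than with G-NHX9-midi, at sums of 1950 to 4280 against 362 to 632 CPM. Of 5 dividing-cell markers 3 were higher, at 1580 to 1900 against 710 to 1530 CPM. The neutrophil sum was 4370 to 10300 against 8660 to 18900 CPM. Neutrophil markers did not move one way, with 5 of 9 entries lower, such as S100a9 (-1.21, SE 0.25), and Camp (1.4, SE 0.4) and Ltf (1.16, SE 0.24) higher. Of 6 stem and progenitor markers, 4 were higher, Kit (2.11, SE 0.26) most, and 2 were lower, Ly6a (-0.85, SE 0.16) and Flt3 (-4.29, SE 0.32). Of 5 macrophage markers 1, Adgre1, was higher (0.36, SE 0.13). In G-NHX9-midi against Empty, 4 of 5 mast cell and basophil markers and 4 of 5 macrophage markers were lower, 3 progenitor markers were higher and 2 lower, 2 neutrophil entries were higher and 3 lower, and 1 dividing-cell marker was higher. Among the erythroid and mast cell markers the lowest mean in these 3 groups was 0.13 CPM, for the erythroid membrane protein gene Rhag with G-NHX9-midi. The part of these cells in the changes of the mitochondrial ribosomal protein genes was not tested.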

How the data were processed

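RNA was sequenced as stranded total RNA on a NovaSeq instrument. The authors deposited raw read counts per gene, and their processing notes name STAR 2.7.0d, HTSeq 0.11.2, DESeq2 and the mm10 genome. The annotation and strand setting used for counting are not given in the sources used here. Groups were taken from the labels, and no 2 libraries of a group agreed within sampling noise (over 70 pairs, the chi-square divided by its degrees of freedom was 23.2 or more).

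All 35 libraries were fitted together in edgeR 4.0.16 (R 4.3.3) with TMM scaling, filterByExpr by group and the quasi-likelihood test, and p-values were adjusted over 17166 genes by Benjamini-Hochberg. Depth, at 31559914 to 75810659 counts, gave every member at least 19 counts per library. Alternatives were DESeq2 1.42.0, other size factors, no scaling, no filter, fits of 2 groups, a replicate block, leaving out each library, and leaving out libraries of another age. The interaction and the fits with Empty libraries 1 to 3 were added after the values were seen. Same-numbered libraries deviated together (all 5 correlations over 0.1) for G-NHX9, G-NHX9-midi-21FGAA and G-NHX9-DDNA against Empty and for G-NHX9-21FGAA and G-NHX9-DDNA against G-NHX9. The source of that pairing is not given in the labels.

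The members, gene lists, motifs and promoters were chosen with earlier results of these data known. Members were named by rule: the 4 that rose and 4 that fell most among those called in each comparison with Empty, 2 and 2 in the other comparisons, those called one way in at least 5 of the 6 comparisons with Empty, the Mrps18 paralogues, the stalk genes, Mrpl58, Mrps30 and Mrps36, and the 3 highest and 3 lowest per length. Other members, such as the further genes named for G-NHX9-midi-21FGAA against G-NHX9-midi, were named after their values were seen. From each other list, up to 2 that rose and up to 2 that fell were named as examples, and for the regulators all that changed. Positions are from GENCODE M21 and promoters from RefSeq GRCm38.p6. The test was also run on simulated counts with known changes. Figures were drawn with matplotlib 3.10.9.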

Additional observations from a re-analysis of the deposited data

Results flagged for a closer look

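In 9 of 238 groups of 5 libraries tested, 1 library lay far from the other 4, where chance gives about 1 in 20. Mrps18a was 36 CPM in Empty library 2, next to 30.6, and 30.3 CPM in G-NHX9-DDNA library 2, next to 27.4. Mrps27 was 14.7 CPM in Empty library 5, next to 12.3. In G-NHX9-midi library 4 the summed level of the 78 genes was 2650 CPM, next to 2450, with Mrpl54 at 30.2 CPM, next to 25.6, and Mrps36 at 15.4 CPM, next to 12. In G-NHX9-midi library 1, Mrpl15 was 43.1 CPM, next to 49.9, and Mrpl23 was 20.4 CPM, next to 21.7. Mrpl54 was 23.9 CPM in G-NHX9-21FGAA library 1, next to 30.3.

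The effect of the FG changes differed between the shortened and the full-length fusion for Mrpl19, by -0.72 on the log2 scale, and for Mrpl57, by -0.4, by the interaction test.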

How the results depend on the processing

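G-NHX9-midi-21FGAA against G-NHX9-midi gave 23 to 33 changed members under every alternative run. Counts of changed members below are in the order G-NHX9, G-NHX9-8FA, G-NHX9-midi, G-NHX9-21FGAA, G-NHX9-midi-21FGAA and G-NHX9-DDNA against Empty, then G-NHX9-8FA, G-NHX9-midi, G-NHX9-21FGAA and G-NHX9-DDNA against G-NHX9. On all libraries they were 13, 12, 37, 10, 10, 7, 3, 14, 4 and 6. Without TMM scaling they were 44, 21, 54, 34, 30, 19, 6, 9, 5 and 12, with medians of 0.25, 0.18, 0.35, 0.23, 0.17 and 0.18 against Empty, and -0.08 for G-NHX9-8FA against G-NHX9. Without a filter, counts fell to 6, 7 and 23 for the first 3, 4 for G-NHX9-DDNA against Empty, and 1, 6, 1 and 3 against G-NHX9. With only the 2 groups in the fit, they were 6 for G-NHX9-8FA and 6 for G-NHX9-21FGAA against Empty, and 0, 5, 1 and 3 against G-NHX9. Without libraries of another age than 8 weeks the counts against Empty were 6, 2, 13, 7, 4 and 5, and the medians of G-NHX9, G-NHX9-21FGAA, G-NHX9-midi-21FGAA and G-NHX9-DDNA turned to -0.01, -0.03, -0.02 and -0.05. With Empty libraries 1, 2 and 3 only, the counts were 4, 2, 13, 7, 5 and 7, and these medians -0.02, -0.03, -0.02 and -0.05. With the replicate block the counts were 18, 17, 42, 11, 15, 13, 6, 17, 7 and 8, and 33 for G-NHX9-midi-21FGAA against G-NHX9-midi.

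Leaving out 1 library at a time gave 5 to 17, 6 to 13, 23 to 40, 7 to 14, 7 to 12, 3 to 10, 0 to 7, 3 to 16, 1 to 6 and 3 to 9 changed members, and 24 to 30 for G-NHX9-midi-21FGAA against G-NHX9-midi. The medians ran from 0.03 to 0.11, 0.07 to 0.16, 0.16 to 0.26, 0.01 to 0.1, 0.02 to 0.1, -0.02 to 0.08, 0.01 to 0.09, 0.1 to 0.18, -0.06 to 0.02 and -0.08 to 0.02, and from -0.19 to -0.12. The cause was not tested. Depth limits Mrpl53, at 19 to 59 counts per library.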
